A study of Mus musculus with 20 samples.

Results

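The genes described here encode the core of the Akt and mTOR pathway: the kinases Akt1 and Akt2, the kinase Mtor, the scaffold proteins Rptor and Rictor, the activator Rheb, the inhibitors Tsc1 and Tsc2, and the substrates Rps6kb1 and Eif4ebp1. They were chosen by symbol, and every probe set (a group of short probes against one transcript) that the platform annotation assigns to one of these genes and to no other was taken. Of the 10 genes, 9 had such a probe set, out of 18193 genes on the array that did. They held 26 of the 45037 probe sets on the array that are not controls. Rps6kb1 had none and is not analysed here. The samples are gastrocnemius (calf) muscle of mice on Affymetrix mouse arrays, 10 samples labelled JA16 and 10 labelled saline. JA16, an antibody against myostatin, was injected into the peritoneum at 0.12 mg per g body weight on day 1 and 0.09 mg per g on day 3, and saline in the control mice. All mice were killed on day 5. The labels give no genotype, strain, age or sex, and do not say whether each sample is a mouse of its own, so the p-values speak for the spread of these samples, which may be in part technical.

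Akt and mTOR carry the growth signal of insulin and insulin-like growth factors. Akt, switched on at the membrane by phosphoinositide 3-kinase (PI3K), inhibits the Tsc1 and Tsc2 complex, which otherwise keeps the small GTPase Rheb inactive. Active Rheb switches on mTOR in complex 1 (mTORC1), which holds Rptor and drives protein synthesis through S6 kinase and the 4E-binding proteins, while mTOR in complex 2 (mTORC2), which holds Rictor, phosphorylates Akt. In muscle the pathway is known for its part in fibre growth, and myostatin signalling is known to dampen it. These steps act on proteins, through phosphorylation, binding and GTP hydrolysis, and the arrays measured transcripts only.

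Both groups carried the transcripts of fast skeletal muscle. Ckm, the muscle creatine kinase, had intensities of 17692 to 23369 in JA16 and 16755 to 23842 in saline samples, and Myh4, a fast myosin heavy chain, had 19429 to 27948 in JA16 and 19617 to 24612 in saline samples. All intensities are the authors' MAS5 values, every array scaled to a trimmed mean of 500. The arrays fell into replicates 1 to 6 and replicates 7 to 10, with both groups in each set, by how much brighter the beta-actin control was at the 3' end of its transcript than at the 5' end. On the log2 scale the 3' end was brighter by 1.33 to 1.83 in JA16 and 1.69 to 1.84 in saline samples of the first set. In the second set it was brighter by 0.50 to 0.58 in JA16 and 0.48 to 0.64 in saline samples. The ratio was thus not balanced between the groups in replicates 1 to 6, where JA16 reached lower. By the same measure the Gapdh control overlapped between the sets. It ran from 0.21 to 0.41 in the first set and from 0.18 to 0.32 in the second. Same-numbered samples of the groups deviated together and were compared as 10 pairs. Some differently numbered samples deviated together too.

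No member passed the test between JA16 and saline. Of the 26 probe sets, 21 were bright enough to test, covering all 9 genes, and 0 of them had an adjusted p under 0.05 in limma with the replicate number as a block, against 0.2% of all 22519 probe sets tested (0.124% higher and 0.0755% lower). Without the block it was again 0 of 21, against 0.00888%. At an unadjusted p under 0.05 there was 1 of the 21 with the block, a Rictor probe set, against 15.7% of all probe sets, and 0 without it, against 2.22%. With array medians centred it was 4 of 21, 1 probe set each of Akt2, Mtor, Rictor and Eif4ebp1, against 11.8%. Over the fits that left out 1 pair it was 1 to 3 of 21, against 10.3% to 17.4% of all probe sets. The lowest adjusted p of a member was 0.227 with the block and 1.0 without it. Of the 21 probe sets, 12 were above and 9 below 0. Their median log2 fold change of JA16 over saline was 0.042, and that of all probe sets was -0.036. Genes with several probe sets weigh more in that median. With only the brightest probe set of each gene, the median of the 9 genes was -0.017, and that of all genes was -0.016. For none of the 21 were the intensities of the 2 groups apart, as for 0% of all probe sets, and 2 of the 21, 1 of Akt2 and 1 of Rictor, differed in one direction in at least 8 of 10 pairs, against 20.7% of all probe sets.

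**Figure D1:**
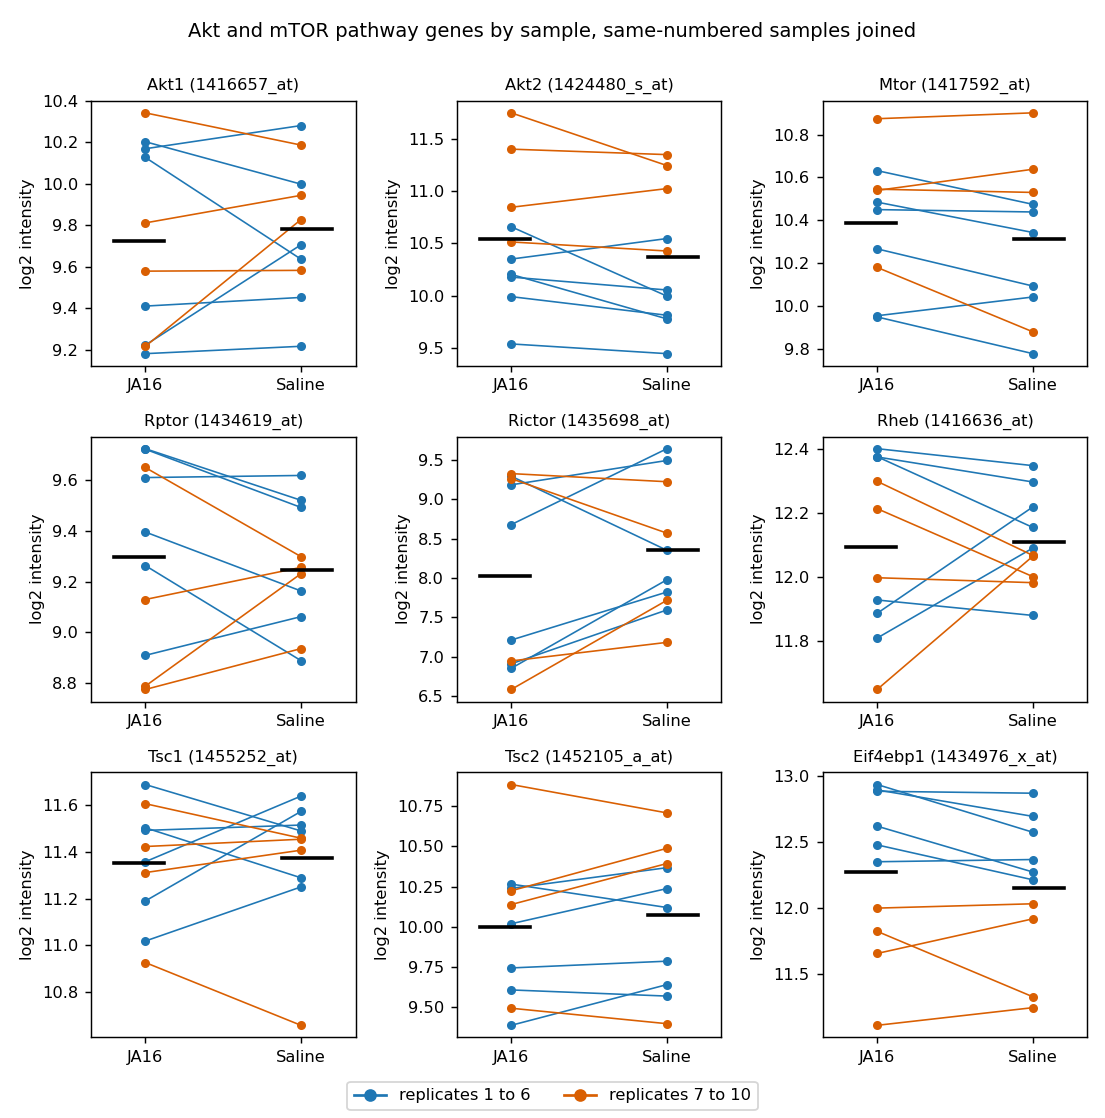
Log2 MAS5 intensity of the brightest probe set of each of the 9 genes, with JA16 samples at the left and saline samples at the right of each panel, a line joining same-numbered samples, colour giving the replicate set and black bars the group means. The groups overlap in every panel, and the lines of Rictor fan out over a range of 95.8 to 799 in intensity while those of Mtor run nearly parallel.

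The size of change that the data allow depended on the fit. For each gene the brightest probe set represents it below. Over these 9 the log2 fold changes lay between -0.33 and 0.18 with standard errors (SE) of 0.065 to 0.19. For 7 of 9 genes the 95% interval of the ratio of JA16 to saline lay within 0.8 to 1.25, the exceptions being Akt2 and Rictor. Without the block, or with the replicate set as block, it did so for 2 of 9, Rheb and Tsc1. Without the block the SE was 1.45 to 3.30 times as large. With array medians centred it did so for 4 of 9, with Mtor, Rptor and Eif4ebp1 also outside, and with the beta-actin covariate for 7 of 9, with Akt1 and Rictor outside. In replicates 1 to 6 alone it was 5 of 9, and in replicates 7 to 10 alone 1 of 9. The representatives of Akt2, Tsc2 and Eif4ebp1 were treated as cross-matching, by an ending of _a_at, _s_at or _x_at. With such probe sets left out, the representatives of 6 genes remained, and 5 of those lay within, all but Rictor. Some dimmer probe sets of genes counted as within had wider intervals, such as 0.97 to 1.58 at Mtor 1446185_at.

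**Figure D2:**
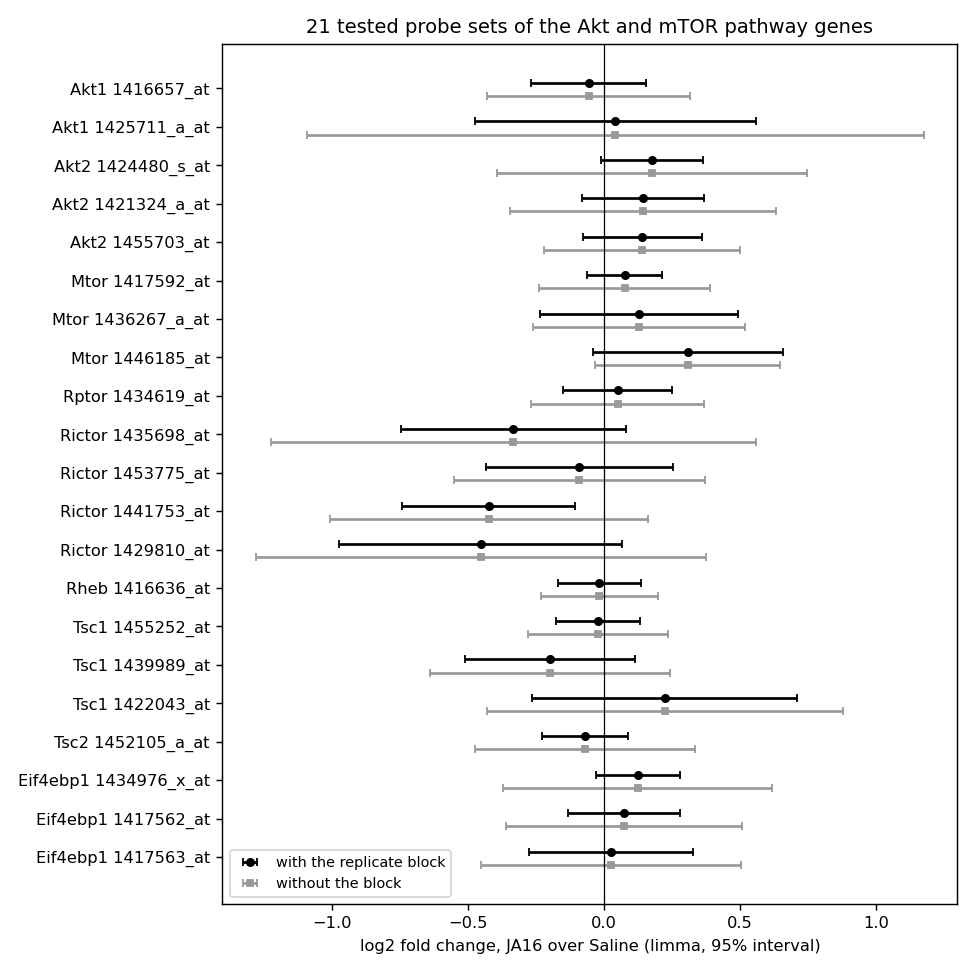
Log2 fold change of JA16 over saline for the 21 tested probe sets with 95% intervals from limma, black circles with the replicate block and grey squares without it. The interval of 1 probe set, Rictor 1441753_at, leaves out 0 with the block, and none does without it.

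The Akt kinases stand at the head of the pathway. Akt1, the form found in most tissues, had intensities of 581 to 1298 (median 832) in JA16 and 596 to 1244 (median 873) in saline samples at probe set 1416657_at. The ranges nearly coincided, and JA16 was the lower sample in 7 of 10 pairs. The log2 fold change was -0.057 (SE 0.10, 95% interval -0.27 to 0.16, adjusted p = 0.810), and it was 0.012 when array medians were centred and -0.21 (SE 0.10, adjusted p = 0.589) with the beta-actin ratio as a covariate. A second probe set, 1425711_a_at, ran from 27.4 to 313 in JA16 and from 22.3 to 280 in saline samples, with a log2 fold change of 0.042 (SE 0.24), which was -0.24 with the covariate. That spread lay between the replicate sets, as described below. Probe sets 1440950_at and 1442759_at were too dim to test, with medians of 10.7 and 8.2 in JA16 and 6.5 and 7.25 in saline samples.

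Akt2, the form through which insulin drives glucose uptake in muscle and fat, had log2 fold changes above 0 at all 3 of its probe sets, none of which passed the test. At 1424480_s_at intensities were 744 to 3439 (median 1384) in JA16 and 698 to 2608 (median 1221) in saline samples. Of the JA16 samples, 2 lay above every saline sample (3439 in replicate 8 and 2704 in replicate 9), the others lay within the saline range, and 8 of 10 pairs were higher in JA16. This gave a log2 fold change of 0.18 (SE 0.088, 95% interval -0.012 to 0.36, adjusted p = 0.345), a ratio of 1.13. Probe sets 1421324_a_at and 1455703_at gave 0.14 (SE 0.10, adjusted p = 0.507) and 0.14 (SE 0.10, adjusted p = 0.503), with 6 and 7 of 10 pairs higher. The 3 probe sets read transcripts of 1 gene and are not independent evidence. With the beta-actin ratio as a covariate, their values were 0.086, 0.080 and 0.083.

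Mtor, the kinase at the centre of both complexes, had the steadiest pairs. Its probe set 1417592_at gave 988 to 1877 (median 1416) in JA16 and 877 to 1913 (median 1343) in saline samples, and 7 of 10 pairs were higher in JA16. Pair differences had a standard deviation (SD) of 0.13 on the log2 scale, where the samples within a group had SDs of 0.30 in JA16 and 0.36 in saline. The log2 fold change was 0.076 (SE 0.065, 95% interval -0.063 to 0.21, adjusted p = 0.576). The dimmer probe sets 1436267_a_at and 1446185_at were at 0.13 (SE 0.17) and 0.31 (SE 0.16, adjusted p = 0.368). At 1446185_at the intensities were 67.0 to 105 (median 74.8) in JA16 and 41.9 to 90.5 (median 63.1) in saline samples, so that the lowest JA16 sample stood above the saline median.

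Rptor, the scaffold that brings substrates to mTORC1, split evenly. Intensities at 1434619_at were 438 to 846 (median 644) in JA16 and 474 to 786 (median 606) in saline samples, and 5 of 10 pairs went each way. This gave a log2 fold change of 0.050 (SE 0.094, 95% interval -0.15 to 0.25, adjusted p = 0.826). The other 2 probe sets, 1458472_at and 1430784_a_at, had medians of 15.1 and 17.2 in JA16 and 18.4 and 21 in saline samples and were not tested.

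Rictor, the scaffold of mTORC2, had the 3 lowest log2 fold changes among the members. All 4 tested probe sets were below 0, and none passed the adjusted threshold. At 1441753_at intensities were 27.3 to 143 (median 105) in JA16 and 58.3 to 200 (median 131) in saline samples, with 8 of 10 pairs lower in JA16. The 2 ranges overlapped, with the lowest value in JA16 and the highest in saline. The log2 fold change was -0.42 (SE 0.15, 95% interval -0.74 to -0.10, unadjusted p = 0.0125, adjusted p = 0.227), a ratio of 0.746. Without the block the interval was -1.01 to 0.16 (adjusted p = 1.0). Leaving out any 1 pair kept it between -0.48 and -0.35, with adjusted p between 0.187 and 0.434.

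The other Rictor probe sets were less steady. The brightest, 1435698_at, was at -0.33 (SE 0.19, adjusted p = 0.405) with 7 of 10 pairs lower, and 1429810_at at -0.45 (SE 0.24, adjusted p = 0.371) with 6 of 10 lower. Pairs 6 and 8 were low at both, with differences of -1.13 and -1.13 at 1435698_at and -1.35 and -2.12 at 1429810_at. The fourth, 1453775_at, was at -0.091 (SE 0.16, adjusted p = 0.812) with 5 of 10 pairs lower, and without pair 1, whose JA16 sample had 69.0 against 147 to 266 in the other JA16 samples, it was at 0.065. Probe set 1427583_at had medians of 18.0 in JA16 and 18.7 in saline samples and was not tested. With the beta-actin ratio as a covariate the 4 values were -0.15 at 1435698_at, -0.0083 at 1453775_at, -0.50 at 1441753_at and -0.28 at 1429810_at.

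Rictor levels also spread widely between pairs. At 1435698_at, pairs 4, 5, 7 and 10 had 409, 581, 642 and 614 in JA16 and 799, 720, 597 and 380 in saline samples. Pairs 1, 2, 6, 8 and 9 had 120, 148, 115, 95.8 and 123 in JA16 and 193, 226, 252, 210 and 145 in saline samples. In the first 4 of these pairs both samples were at 379.7 or more and in the other 5 both were at 252 or less, a division made after the values were seen, and both replicate sets held pairs of each kind. Within the pairs the samples still differed, by a log2 SD of 0.73, the largest of the 9 genes. Pair 3 had 627 in JA16 and 327 in saline.

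**Figure D3:**
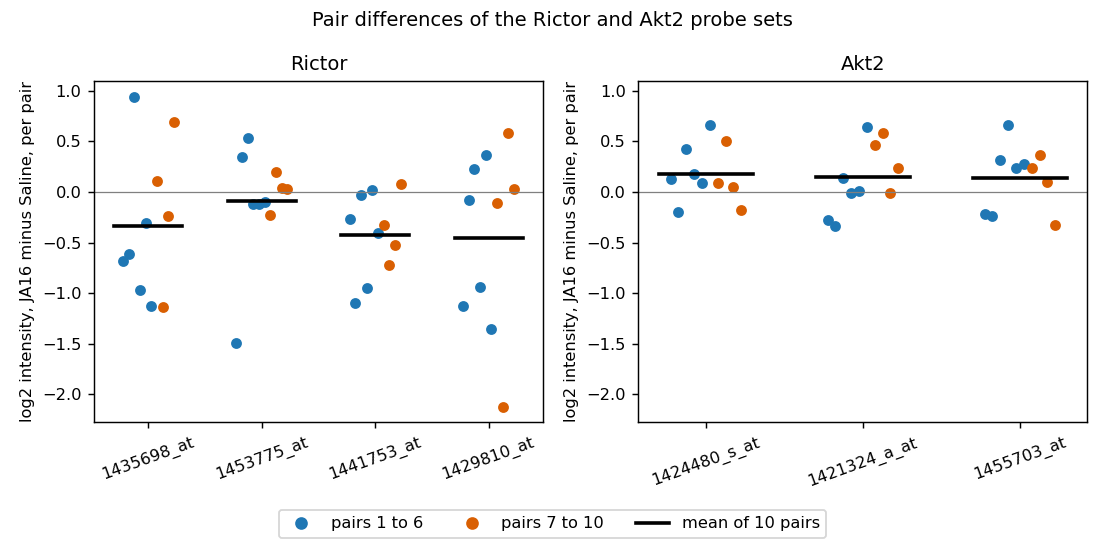
Difference in log2 intensity, JA16 minus saline, for each of the 10 pairs at the 4 tested Rictor and the 3 Akt2 probe sets, coloured by replicate set, with bars at the mean of the pairs. Rictor differences run from -2.12 to 0.94 and Akt2 differences from -0.34 to 0.66.

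Rheb, the GTPase that activates mTORC1, was close to equal in the groups. Its only probe set, 1416636_at, had 3210 to 5413 (median 4421) in JA16 and 3769 to 5217 (median 4328) in saline samples. JA16 samples spread on both sides of the saline range, with a log2 SD of 0.27 against 0.15, and 7 of 10 pairs were higher in JA16 although the mean was not. The log2 fold change was -0.017 (SE 0.072, 95% interval -0.17 to 0.14, adjusted p = 0.930) and 0.052 with centred array medians. Pairs 1, 6 and 8 were low, at -0.28, -0.33 and -0.42. In the same pairs, singled out after their values were seen, Rictor 1435698_at was at -0.69, -1.13 and -1.13 and Akt1 1416657_at at 0.20, 0.49 and 0.16. These were 3 of the 4 lowest pairs for Rictor and the 3 highest for Akt1.

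Tsc1 and Tsc2, which together restrain Rheb, did not pass the test either. At the brightest Tsc1 probe set, 1455252_at, intensities were 1946 to 3303 (median 2686) in JA16 and 1614 to 3191 (median 2811) in saline samples. Saline replicate 7 held the lowest of these values, and the groups overlapped. The log2 fold change was -0.022 (SE 0.073, 95% interval -0.18 to 0.13, adjusted p = 0.910) and 0.048 with centred medians, and Rheb and Tsc1 were at 0.053 and 0.078 with the beta-actin covariate. The dim Tsc1 probe sets pointed in opposite directions, 1439989_at to -0.20 (SE 0.15) and 1422043_at to 0.22 (SE 0.23). Without pair 4, whose saline sample had 11 at 1422043_at, this value was 0.034. For Tsc2, probe set 1452105_a_at had 671 to 1890 (median 1083) in JA16 and 675 to 1672 (median 1160) in saline samples, with 6 of 10 pairs lower in JA16. Its log2 fold change was -0.070 (SE 0.074, 95% interval -0.23 to 0.086, adjusted p = 0.658).

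Eif4ebp1 encodes 4E-BP1, the repressor of cap-dependent translation that mTORC1 inactivates. Intensities at 1434976_x_at were 2209 to 7848 (median 5469) in JA16 and 2425 to 7497 (median 4851) in saline samples, and 6 of 10 pairs were higher in JA16. The ranges overlapped almost fully. The difference came to a log2 fold change of 0.12 (SE 0.072, 95% interval -0.030 to 0.28, adjusted p = 0.403), with 0.073 (SE 0.097) at 1417562_at and 0.025 (SE 0.14) at 1417563_at. With the beta-actin ratio as a covariate the 3 were at 0.066, -0.030 and -0.020. Fitted alone, replicates 1 to 6 gave 0.20 (SE 0.071) at the brightest probe set, and replicates 7 to 10 gave 0.017 (SE 0.14). The difference between these effects was 0.18 (SE 0.15, unadjusted interaction p = 0.239).

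Some probe sets differed between the replicate sets, at a share close to that of all probe sets. For 3 of the 21 probe sets, 2 of Eif4ebp1 and 1 of Akt1, the samples of replicates 7 to 10 and those of replicates 1 to 6 did not overlap, against 12.4% of all probe sets. Of the 3, 1 was higher in replicates 7 to 10, against 8.02% of all probe sets, and 2 were lower, against 4.42%. The samples of replicates 7 to 10 had 106 to 313 at Akt1 1425711_a_at, where those of replicates 1 to 6 had 22.3 to 85.6, a log2 difference of 2.34. At Eif4ebp1 1434976_x_at the samples of replicates 7 to 10 had 2209 to 4189 and those of replicates 1 to 6 had 4752 to 7848, a difference of -0.96. Probe sets of 1 gene went opposite ways: Eif4ebp1 1417563_at differed by -0.85 and 1417562_at by 0.55, and Akt2 1424480_s_at by 1.02 where 1455703_at differed by -0.12. The effect of JA16 did not pass a test of difference between the sets for any of the 21 probe sets (0 in limma with an interaction term, lowest adjusted p = 1.0), as for 0% of all probe sets. At an unadjusted p under 0.05 it was 0 of 21, against 2.62%.

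**Figure D4:**
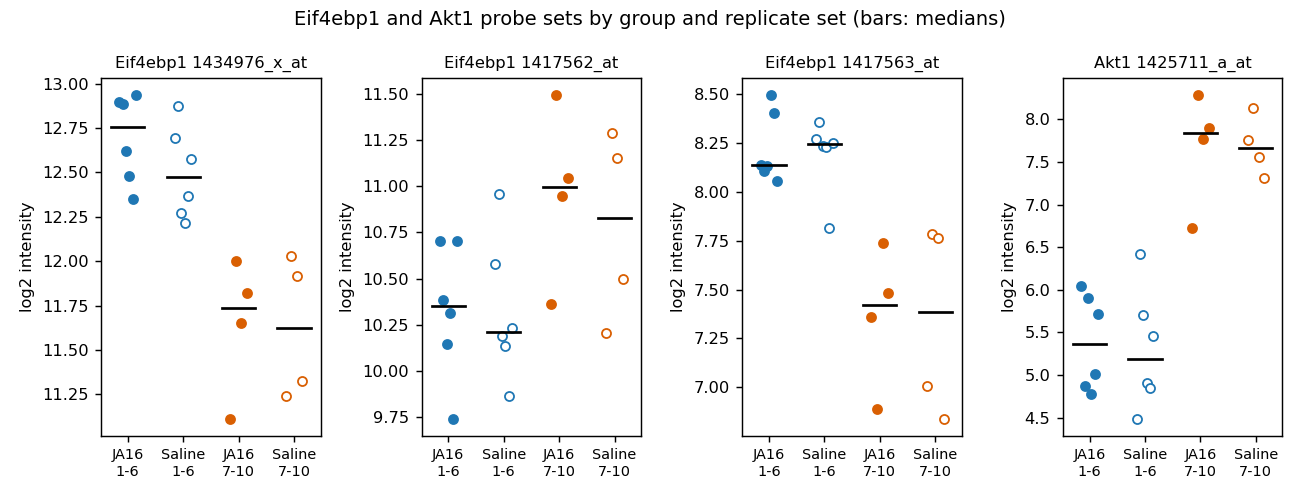
Log2 intensity of the 3 Eif4ebp1 probe sets and of Akt1 1425711_a_at in JA16 (filled) and saline (open) samples of replicates 1 to 6 and 7 to 10, with bars at the medians. The replicate sets stand apart for 1434976_x_at, 1417563_at and 1425711_a_at, while JA16 and saline overlap within each set.

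The rest of the pathway was read from 82 further genes in 7 groups by role, of which 78 had a single-gene probe set and 77 were bright enough to test. None passed (0 of 77 with the block, against 0.25% of 11201 genes, and 0 without it, against 0.0179%). At an unadjusted p under 0.05 with the block there were 19 of 77 (24.7%), against 16.3% of all genes, and 2 without the block, against 2.61%. The 19 were 6 higher, against 7.47% of all genes, and 13 lower, against 8.82%. The median log2 fold change of the 77 was 0.0003, and that of all genes was -0.016, with 54.2% of genes below 0. Fewer cells of a type and less RNA per cell cannot be told apart in such bulk samples.

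Among receptors and adaptors, 6 of 8 genes were below 0 (median -0.074). Irs1, the adaptor that links the insulin receptor to PI3K, had 3203 to 6934 (median 5168) in JA16 and 3124 to 5538 (median 4346) in saline samples, and was higher in 8 of 10 pairs. Its log2 fold change was 0.24 (SE 0.079, adjusted p = 0.209). Grb14, an inhibitor of the insulin receptor, was at -0.53 (SE 0.19, adjusted p = 0.234), with 188 to 851 in JA16 and 660 to 1151 in saline samples. The receptor Igf1r, named after its value was seen, was at -0.25 (SE 0.12, adjusted p = 0.315), and 2 of its 3 tested probe sets were below 0.

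PI3K subunits and phosphoinositide regulators had the lowest median of the 7 groups, -0.18, with 10 of 12 genes below 0. Fitted alone, replicates 1 to 6 gave a median of -0.17 and replicates 7 to 10 one of -0.076, where the receptors and the stress inhibitors were lower at -0.16 each. Pik3r1, the main regulatory subunit, had 365 to 1167 (median 682) in JA16 and 443 to 1434 (median 1041) in saline samples. It was lower in 9 of 10 pairs, at -0.38 (SE 0.14, adjusted p = 0.234), and 2 of its 3 tested probe sets were below 0. Pik3c2a, a class II kinase, was at -0.40 (SE 0.15, adjusted p = 0.249). The catalytic subunit Pik3ca at -0.32 (SE 0.13) and the regulatory subunit Pik3r3 at -0.27 (SE 0.12), both named after their values were seen, were the other genes here with an unadjusted p under 0.05. The group median stayed between -0.13 and -0.11 with quantile normalization, centred medians or the beta-actin covariate.

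Most markers of other cell types also lay below 0, while muscle markers were above 0 for 7 of 8 genes (median 0.043, and -0.028 with quantile normalization). Nerve and Schwann cell markers were below 0 for 6 of 6 tested genes of 8 listed (median -0.60), with summed intensities of 6530 to 18200 in JA16 and 9220 to 18800 in saline samples. Endothelial and mural markers were below 0 for 7 of 7 (median -0.20, sums of 9470 to 13000 in JA16 and 10300 to 13200 in saline), and fibroblast and tendon markers for 7 of 8 (median -0.20, sums of 22200 to 55100 in JA16 and 31800 to 53600 in saline). Macrophage markers were below 0 for 4 of 6 tested (median -0.098) and adipocyte markers for 3 of 3 (median -0.38). Fitted alone, replicates 1 to 6 gave medians of 0.19 for macrophage, -0.091 for adipocyte and -0.089 for fibroblast markers, and replicates 7 to 10 gave -0.45, -0.94 and -0.36. Nerve markers were at -0.58 in each set. With the beta-actin covariate the macrophage and adipocyte medians were -0.31 and -0.72. As to blood, only Alas2 was tested (-0.096), while Hba-a1 was near background at 1.2 to 16.1 in JA16 and 0.8 to 10.7 in saline samples. None of the marker genes passed the adjusted threshold (0 of 39, against 0.25% of all genes, and 10, or 25.6%, at an unadjusted p under 0.05, against 16.3%). Their part in the values of Rictor and the PI3K genes was not tested.

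Akt substrates and relatives had 4 of 6 genes above 0 (median 0.048). Gsk3b, a kinase that Akt inhibits, was at -0.20 (SE 0.077, adjusted p = 0.258) with all 5 tested probe sets of its 6 below 0, and its relative Gsk3a at 0.077 (SE 0.062, adjusted p = 0.548). The remaining subunits and partners of the mTOR complexes were above 0 for 6 of 7 tested genes (median 0.071). Mapkap1, which encodes the mTORC2 subunit Sin1, had 435 to 1053 (median 585) in JA16 and 364 to 928 (median 507) in saline samples. It was higher in 9 of 10 pairs, at 0.18 (SE 0.080, adjusted p = 0.301). Fkbp1a, the rapamycin-binding protein FKBP12, was at 0.071 (SE 0.044, adjusted p = 0.437). The mTORC2 partners Rictor and Sin1 thus had log2 fold changes of opposite sign, neither past the threshold.

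Of the amino acid branch, which recruits mTORC1 to the lysosome, 15 of 22 genes were above 0 (median 0.036). Lamtor4 and Lamtor1, subunits of the Ragulator complex on the lysosome, were at 0.24 (SE 0.082, adjusted p = 0.214) and 0.11 (SE 0.040, adjusted p = 0.234). Lamtor4 was higher in 9 of 10 pairs and Lamtor1 in 7. Castor2 at -0.19 (SE 0.070) and Fnip2 at -0.26 (SE 0.11), named after their values were seen, were the others with an unadjusted p under 0.05.

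Stress inhibitors and partners of the TSC complex had 5 of 9 genes below 0 (median -0.094). Prkaa1, a catalytic subunit of the energy sensor AMPK, had 111 to 410 (median 218) in JA16 and 158 to 415 (median 299) in saline samples. It was lower in 9 of 10 pairs, at -0.45 (SE 0.13, adjusted p = 0.190). Tbc1d7, the other subunit of the TSC complex, was at 0.24 (SE 0.082, adjusted p = 0.213) and higher in 8 of 10 pairs. Sesn3 at -0.32 (SE 0.13) and Ddit4l at 0.13 (SE 0.062), an inhibitor of mTORC1 abundant in muscle, were named after their values were seen.

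Effectors of mTORC1 had a median of -0.014 over 13 genes, which was 0.055 with centred array medians, and 6 were above 0. Eif4b, a translation factor that S6 kinase phosphorylates, had the lowest p of the 77 genes. Its intensities were 5005 to 7525 (median 6187) in JA16 and 5754 to 9715 (median 6978) in saline samples, lower in 9 of 10 pairs, with a log2 fold change of -0.20 (SE 0.057, adjusted p = 0.189) and all 3 probe sets below 0. Tfeb, a transcription factor of lysosome genes that mTORC1 restrains, was at -0.25 (SE 0.11, adjusted p = 0.301).

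**Figure D5:**
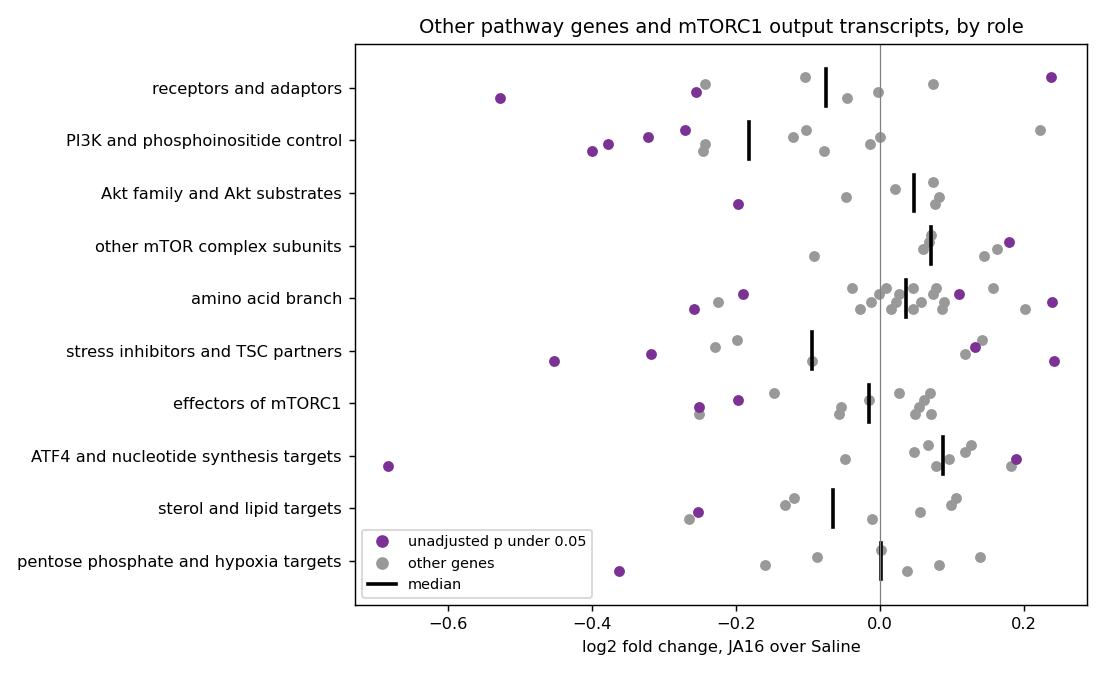
Log2 fold change of JA16 over saline for the 77 further pathway genes and the 25 mTORC1 output transcripts, by role, with purple points for an unadjusted p under 0.05 and bars at the medians. Points lie on both sides of 0 in every role, and the PI3K group has the lowest median, -0.18.

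Transcripts known to rise with mTORC1 activity, through the factors ATF4, SREBP and HIF1, were looked at as a readout of its output. Of 28 listed, 25 were tested and none passed. It was 0 of 25 with the block, against 0.25% of all genes, and 0 without it, against 0.0179%. With the block 4 of 25 (16%) had an unadjusted p under 0.05, 1 higher and 3 lower, against 16.3% of all genes. Without it there was 1, against 2.61%. The ATF4 group, which holds Atf4 itself beside its targets, was above 0 for 8 of 10 genes (median 0.087). But the median was 0.22 in replicates 1 to 6, -0.11 in replicates 7 to 10 and -0.048 with the beta-actin covariate. Sesn2, in this group, is also counted among the further pathway genes. Shmt2, a mitochondrial enzyme of one-carbon metabolism, was at 0.19 (SE 0.086, adjusted p = 0.311), and Chac1, which degrades glutathione, at -0.68 (SE 0.27, adjusted p = 0.263) with 715 to 3889 in JA16 and 1217 to 4859 in saline samples.

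Sterol and lipid targets had a median of -0.065 over 8 genes, which was 0.0042 with centred medians. Srebf1, the lipogenic transcription factor, was at -0.25 (SE 0.11, adjusted p = 0.294) and Hmgcs1, an enzyme of cholesterol synthesis, at -0.13 (SE 0.079, adjusted p = 0.423). Pentose phosphate and hypoxia targets had a median of 0.0019 over 7 genes, and -0.063 with quantile normalization. Hif1a, the hypoxia-inducible factor, was at -0.36 (SE 0.12, adjusted p = 0.204), lower in 8 of 10 pairs, with 760 to 3355 in JA16 and 989 to 4199 in saline samples. Slc2a1, the glucose transporter GLUT1, was at -0.16 (SE 0.10, adjusted p = 0.445).

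The genes whose pair differences were most like those of Rictor 1441753_at, the member with the lowest p, were Usp39, Zdhhc21 and Gtf3c2. Their Pearson correlations over the 10 pairs were 0.93, 0.88 and 0.88, the highest of 11200 genes compared, given as a description of pairs that share arrays and scaling. Their own log2 fold changes were 0.072, -0.18 and -0.044, none past the threshold.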

How the data were processed

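Per the submitters' processing notes, the deposited values are linear array intensities made by the authors with MAS5, whose version is not given in the sources used here, 1 per probe set and sample. The arrays shared a trimmed mean of 500 with 2% of probe sets left out at each end, and medians ran from 38.9 to 77.1. The number of arrays limits the precision. Of 45101 probe sets 64 were controls, and the annotation gave 1 gene for 34945, several for 932 and none for 9160. Identifiers of 34741 single-gene probe sets matched the RefSeq gene table (GRCm38.p6), with no symbol updated.

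The 5 intensities at or below 0 were set to 0.1 and log2 was taken. Probe sets entered at a mean log2 intensity of 5.65 (50.1) or more, the median of all. The 22519 that entered went into limma 3.58.1 under R 4.3.3 (lmFit, eBayes with trend) with treatment and, as a block, replicate number, two-sided, Benjamini-Hochberg over all 22519, threshold 0.05. Fold changes are differences of log2 deposited intensity. After group means were removed, same-numbered samples correlated at 0.38 to 0.79 in all 10 pairs (median 0.64), and differently numbered ones at -0.76 to 0.75 (median -0.11). Once replicate set means were also removed, these were 0.11 to 0.74 and, within a set, -0.75 to 0.63. Of 10 samples per group, 5 of JA16 and 6 of saline were best matched by the sample of their own number. The pairing rests on these values and on the shared numbers in the labels. Within each pair saline was the array numbered lower, so the order of arrays and treatment cannot be told apart. No 2 arrays were copies (correlations 0.879 to 0.936). Members, lists and tests were chosen with earlier results of these data known. Named are all member probe sets and, in each role group, genes past the threshold and the 2 of lowest p. Alternatives were no block, no filter, quantile normalization, centred array medians, a floor of 16, medians over probe sets, no cross-matching probe sets, no trend, replicate set as block, the beta-actin ratio as covariate, each replicate set alone and each pair left out. Python 3.11.15, pandas 2.3.3, numpy 2.4.6 and matplotlib 3.10.9 were used.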

Additional observations from a re-analysis of the deposited data

Results flagged for a closer look

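In 8 of 92 groups of 10 samples checked, the lowest or highest sample stood apart from the others on the log2 scale. The gap was beyond Dixon's 95% critical value, where chance gives about 1 in 20. The values below are linear intensities, on which the gaps can look smaller. Rictor had 69.0 in JA16 replicate 1 at 1453775_at, where the other JA16 samples had 147 to 266. It had 27.3 in JA16 replicate 2 at 1441753_at, against 63.6 to 143 in the others. Tsc1 had 1614 in saline replicate 7 at 1455252_at (others 2436 to 3191) and 11 in saline replicate 4 at 1422043_at (others 44.6 to 84.1). The untested Rptor probe sets had 2.80 in saline replicate 3 at 1458472_at (others 11 to 40) and 2.10 in JA16 replicate 4 at 1430784_a_at (others 10.0 to 43.5). Grb14 had 188 in JA16 replicate 3 (others 492 to 851), and Lamtor4 had 3822 in JA16 replicate 6 (others 1914 to 2745).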

How the results depend on the processing

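The counts of 0 for member probe sets, further pathway genes and mTORC1 output transcripts held under every alternative run, no replicate block included. Of 195 recomputed values of the 9 member genes, 179 kept their sign and none passed the threshold. The other 16 changed sign, all between values near 0, and the cause was not tested. With centred array medians Akt1 was at 0.012, Rheb at 0.052 and Tsc1 at 0.048, and with the beta-actin covariate Rheb was at 0.053 and Tsc1 at 0.078. Akt1 was at 0.0037 in replicates 1 to 6 alone, and in replicates 7 to 10 alone Rptor was at -0.095, Rheb at 0.011 and Tsc1 at 0.073. Without 1 pair Akt1 ran from -0.12 to 0.0045, Rheb from -0.045 to 0.027 and Tsc1 from -0.054 to 0.019. The number of all probe sets past the threshold, 45, was 2 with no replicate block, 13 with centred medians, 29 without cross-matching probe sets (fewer tested), 1 without the trend, 9 with the replicate set as block, 2 with the beta-actin covariate, 0 in each replicate set alone (fewer samples; 2158 and 1506 at an unadjusted p under 0.05 in limma), and 7 to 52 without 1 pair. Low signal limits the 5 untested probe sets, whose median intensities over all samples were 7.85 to 18.7.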
